A study of Mus musculus with 6 samples.

Results

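Solute carrier genes, whose symbols start with Slc and a family number, were examined in primary mouse hepatic stellate cells given forskolin or vehicle. The 116 genes described here were chosen by their measured level: protein-coding rows with a mean of at least 20 CPM (the count scaled to a common column total) across all 6 libraries. They were taken from 372 protein-coding Slc rows in a table of 24940 genes. Names decided the choice, so 4 of the 116 encode proteins named after a carrier that are not carriers themselves (Slc9a3r1, Slc9a3r2, Slc7a6os and Slc4a1ap), and 112 encode carriers or their relatives. The level, pooled over both groups, is the selecting value and is given only as a description. It ran from 21.9 to 1276 CPM with a median of 68.7. The members nearest the threshold were Slc5a6 (21.9), Slc26a11 (22.1), Slc1a4 (22.2) and Slc39a11 (22.3 CPM), and the nearest genes outside it were Slc6a19 (19.5), Slc12a9 (19.1), Slc52a2 (19) and Slc31a2 (18.7 CPM). The group means of 111 members both reached 20 CPM, 4 members did so with DMSO only (Slc17a5, Slc1a4, Slc5a6, Slc26a11) and 1 with forskolin only (Slc29a3).

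The cells came from female wild-type mice of strain C57BL/6JBomTac and had spent 2 days in culture. Forskolin at 5 µM, an activator of adenylyl cyclase that raises cAMP, or DMSO alone was put into the medium they already had, and RNA was collected 3 h later. Each group held 3 libraries, lettered A, B and C. No label says whether the letters stand for separate mice or cultures, so p-values here measure only the spread between libraries, which may be technical. Culture itself starts the activation of stellate cells and parts them from their neighbours in the sinusoid, which limits them as a model of the liver.

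Solute carriers move nutrients, ions, metals, vitamins and nucleotides across the plasma membrane and the membranes of organelles, mostly by facilitated diffusion or by coupling to a sodium, proton or exchange gradient. The SLC25 family serves the inner mitochondrial membrane, the SLC35 family feeds nucleotide sugars to the Golgi apparatus and the endoplasmic reticulum, and the SLC30 and SLC39 families move zinc in opposite directions. Activated stellate cells rely on glucose uptake and on amino acids for collagen, and cAMP is known in several tissues to change carrier amounts both through CREB-driven transcription and through membrane trafficking, which RNA does not show.

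Total counts per library ran from 2770629 to 10607997, and both C libraries were the shallowest of their group. All 13 stellate cell markers were tested, with a summed level of 1314 to 1747 CPM in the forskolin libraries and 1331 to 1633 CPM in the DMSO libraries, and 1 (Hand2) was called higher. Markers of hepatocytes summed to at most 19.9 CPM and those of macrophages to at most 22.6 CPM in any library. Endothelial markers summed to 51.1 to 86.5 CPM with forskolin and 9.33 to 17.7 CPM with DMSO. Egfl7 alone, at 64.6 ± 15.5 against 3.70 ± 3.49 CPM (SD, n = 3), made up most of that gap, while Pecam1 stood at 3.96 ± 0.706 and 4.14 ± 1.76 CPM. Cholangiocyte markers summed to 43.9, 32.9 and 8.66 CPM in forskolin A, B and C and to 19.8, 12.8 and 12.1 CPM in the DMSO libraries, with overlap, and Krt7 was at 0 in every library. The part of these cells in the results was not tested. In bulk RNA, fewer cells of a type and less RNA per cell cannot be told apart.

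Few of these genes were called with all 6 libraries. Of the 116, all tested among 12233 genes, 3 rose (Slc23a2, Slc25a33 and Slc25a25) and 1 fell (Slc40a1) with a Benjamini-Hochberg adjusted p under 0.05 in the quasi-likelihood test of edgeR. That is 3.45% of the members, beside 2.80% of all genes tested (2.22% higher and 0.572% lower) and 3.99% of the tested genes of at least 20 CPM, so the share lay near the background. The groups did not overlap for 27 members, 20 with forskolin above and 7 with it below, or 23.3%. The same held for 20.2% of all genes tested (10.7% above and 9.47% below) and for 22.7% of those of at least 20 CPM. At an unadjusted p of 0.05, 22 members passed (17 higher and 5 lower, 19%), against 12.1% of all genes tested. The share among genes of at least 20 CPM was not computed at this threshold, so these shares are not matched in level. The median log2 fold change of the members was 0.06, with quartiles of -0.14 and 0.27, and that of all genes of at least 20 CPM was 0.01, with quartiles of -0.14 and 0.15. A fitted change smaller than 0.5 on the log2 scale was found for 104 members, and 1 exceeded 1. Member transcripts made up 1.41%, 1.43% and 1.35% of the counts in DMSO A, B and C, and 1.50%, 1.48% and 1.44% in forskolin A, B and C.

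The calls depended on single libraries and on the shallow C pair. Slc23a2 was the only member called when the A or B library of either group was left out. With single libraries left out, 185 to 485 of all genes were called, against 342 with all 6 libraries. Over these fits the log2 fold change ran from 0.669 to 0.732 for Slc25a33 and from 0.548 to 0.614 for Slc25a25. For Slc40a1 it ran from -1.03 to -0.768. Without both C libraries, which leaves 2 against 2, 14 members were called, 10 higher and 4 lower, and they included the same 4. That is 12.1% of the members, beside 9.76% of the 12597 genes tested in that fit (5.86% higher and 3.90% lower) and 13.5% of those of at least 20 CPM. With column totals alone as the scale, 4 members were called higher and 0 lower, since Slc20a1 passed and Slc40a1 (adjusted p = 0.0593) did not.

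**Figure D1:**
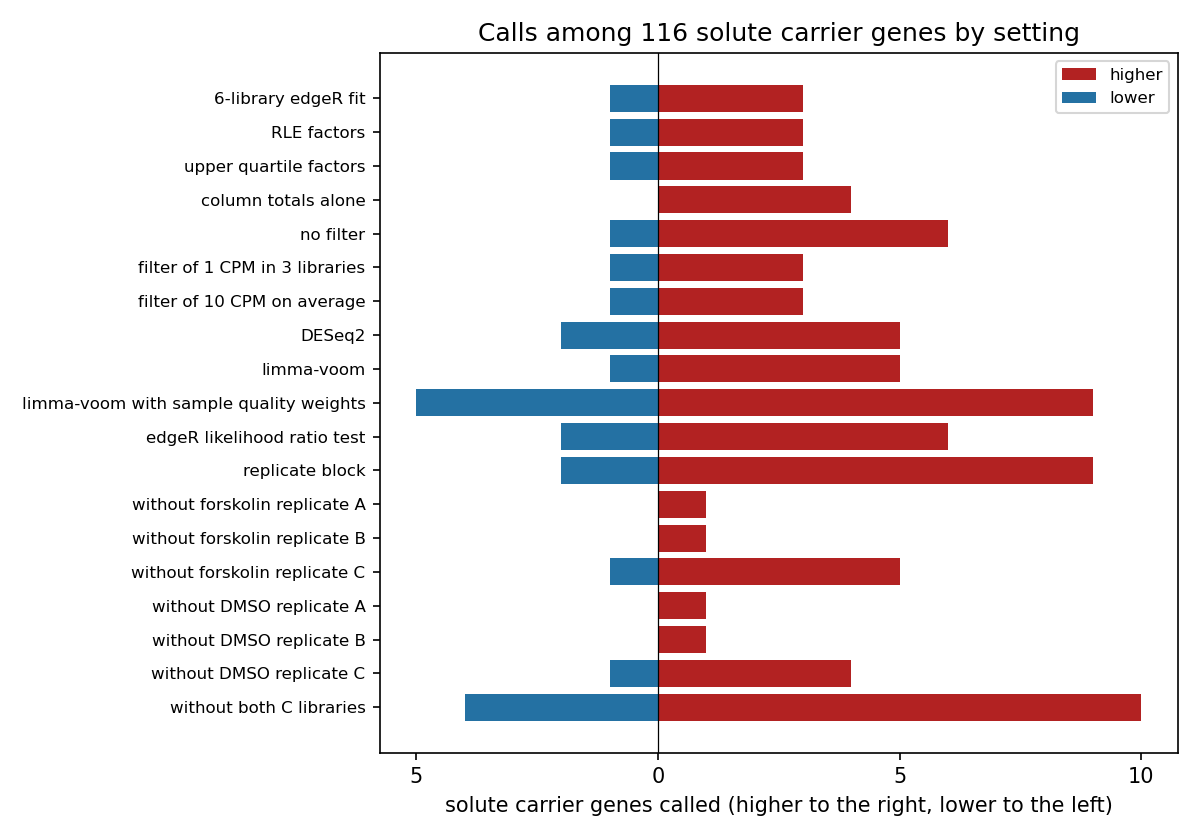
Number of the 116 solute carrier genes called higher and lower (horizontal axis, genes at an adjusted p of 0.05) under each processing setting (vertical axis). The 6-library edgeR fit calls 4, leaving out the A or B library of either group leaves 1, and the fit without both C libraries and that with sample quality weights call 14 each.

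Slc23a2 encodes SVCT2, the sodium-coupled transporter that brings ascorbate into most cells outside epithelia. Ascorbate is the cofactor of the prolyl and lysyl hydroxylases that finish collagen. The gene (NM_018824) lies on the minus strand at chr2:132052496-132145108 in mm10. Its level was 106, 110 and 102 CPM in DMSO A, B and C and 298, 294 and 228 CPM in forskolin A, B and C. Every forskolin library lay far above every DMSO library, and the DMSO libraries lay within a narrow band. The means were 106 ± 3.74 and 273 ± 39.3 CPM (SD, n = 3), a 2.58-fold difference with a log2 fold change of 1.37 ± 0.12 (SE) and an adjusted p of 1.56e-04, and the call held under every setting run. The other ascorbate transporter of the family, Slc23a1, the epithelial form, stood at 3.12 ± 1.70 and 2.93 ± 1.73 CPM and was not a member. The other members that carry vitamins were the thiamine transporter Slc19a2, at 269 ± 43.4 and 222 ± 20.2 CPM (log2 fold change -0.27 ± 0.13, adjusted p = 0.485), and the folate carrier Slc19a1 (0.10 ± 0.17, adjusted p = 0.911).

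**Figure D2:**
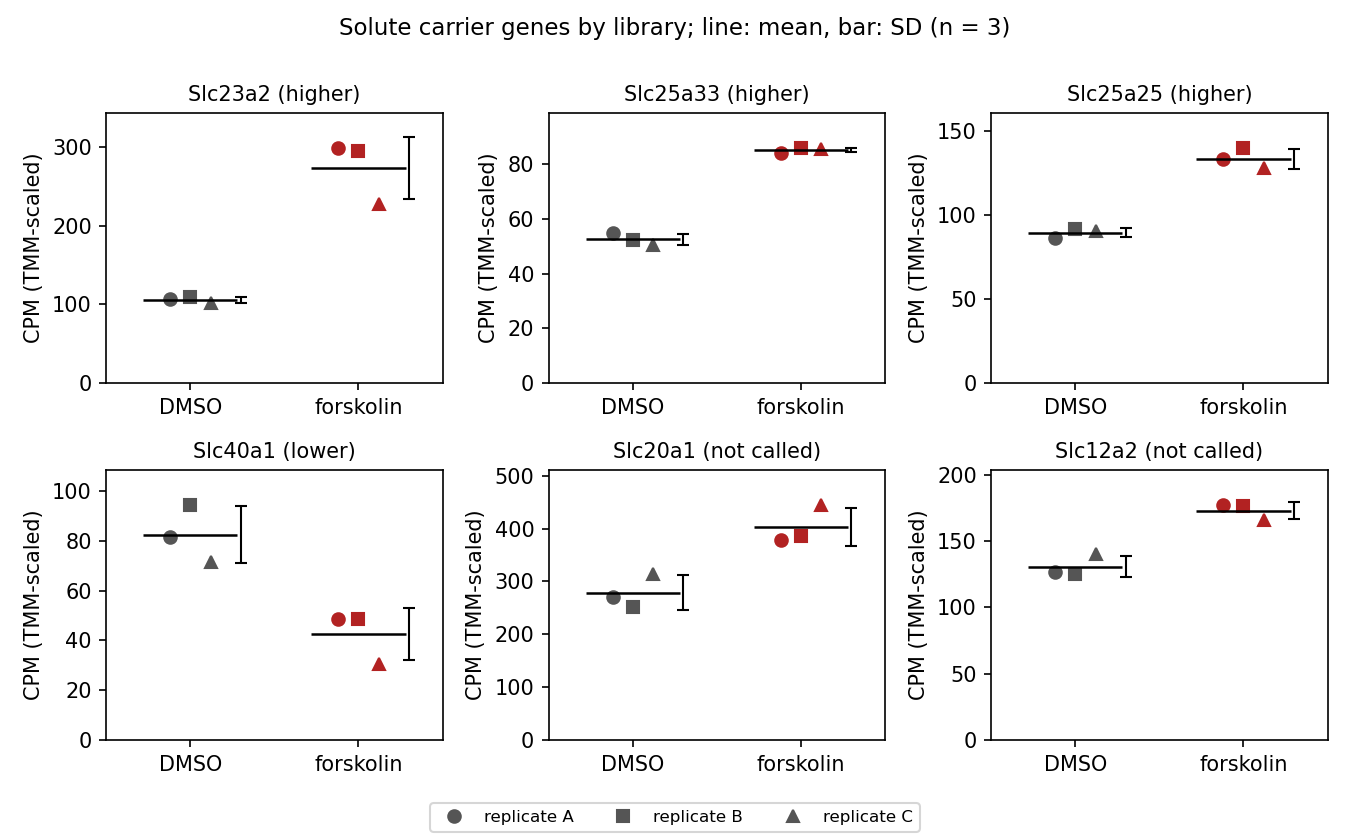
Level in CPM (TMM-scaled, vertical axes from 0) of the 4 called solute carrier genes and of Slc20a1 and Slc12a2, which were not called, with DMSO and forskolin on the horizontal axis. Symbols are libraries, horizontal lines group means and bars the SD (n = 3). Slc23a2 goes from 106 to 273 CPM, Slc25a33 from 52.5 to 85.3, Slc25a25 from 89.5 to 134 and Slc40a1 from 82.4 to 42.6, with no overlap between the groups in any of them.

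Among 24 mitochondrial carriers of the SLC25 family, 2 rose and 0 fell, and 16 had a fitted change above 0 (median log2 fold change 0.13). Of all genes tested 2.80% were called, and of those of at least 20 CPM 3.99%. A fitted change above 0 was found for 70 of the 116 members, and its share among all genes was not computed. Slc25a33 carries pyrimidine nucleotides into the mitochondrion, where they serve mitochondrial DNA and RNA synthesis. It lies at chr4:149744036-149774267 on the minus strand. Its level was 54.8, 52.3 and 50.5 CPM with DMSO and 84.3, 85.8 and 85.7 CPM with forskolin, in the order A, B, C. The forskolin values lay close together and clear of the DMSO values. The log2 fold change was 0.70 ± 0.12 (adjusted p = 0.0129), and the adjusted p with forskolin A, forskolin B, DMSO A and DMSO B left out in turn was 0.0824, 0.087, 0.0622 and 0.0827. Its paralog Slc25a36, which carries the same class of nucleotide, was at 36.8 ± 3.07 and 33.1 ± 5.14 CPM (-0.14 ± 0.19, adjusted p = 0.877). The difference between the paralogs was not tested.

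Slc25a25 encodes an ATP-Mg/phosphate exchanger with calcium-binding domains, which sets the adenine nucleotide pool of the matrix. It lies at chr2:32414487-32451470 on the minus strand and overlaps Naif1, on the opposite strand, which stood at 5.62 CPM with DMSO and 6.93 CPM with forskolin. The level of Slc25a25 was 86.6, 91.6 and 90.3 CPM with DMSO and 133, 140 and 128 CPM with forskolin, and the groups did not overlap. The log2 fold change was 0.58 ± 0.11 (adjusted p = 0.0141), and the adjusted p with forskolin A, forskolin B, DMSO A and DMSO B left out in turn was 0.0874, 0.102, 0.0956 and 0.0761. Its paralog Slc25a24 was at 73.4 ± 9.14 and 64.0 ± 8.34 CPM (-0.20 ± 0.15, adjusted p = 0.733), and Slc25a23 at 5.20 ± 3.35 and 5.03 ± 1.74 CPM, below the level required. The most abundant mitochondrial carriers per kilobase of transcript were the adenine nucleotide translocase Slc25a5 (301 CPM per kb), the phosphate carrier Slc25a3 (206) and the translocase Slc25a4 (135). Their log2 fold changes were 0.07 ± 0.18, 0.27 ± 0.16 and 0.13 ± 0.10, and that of Slc25a5 became -0.03 without both C libraries. The citrate carrier Slc25a1 (0.47 ± 0.18) and Slc25a30 (0.54 ± 0.23) had no overlap between groups and adjusted p of 0.307 and 0.387. Without both C libraries Slc25a46, a protein of the outer mitochondrial membrane, was called lower (-0.49, adjusted p = 0.00449).

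**Figure D3:**
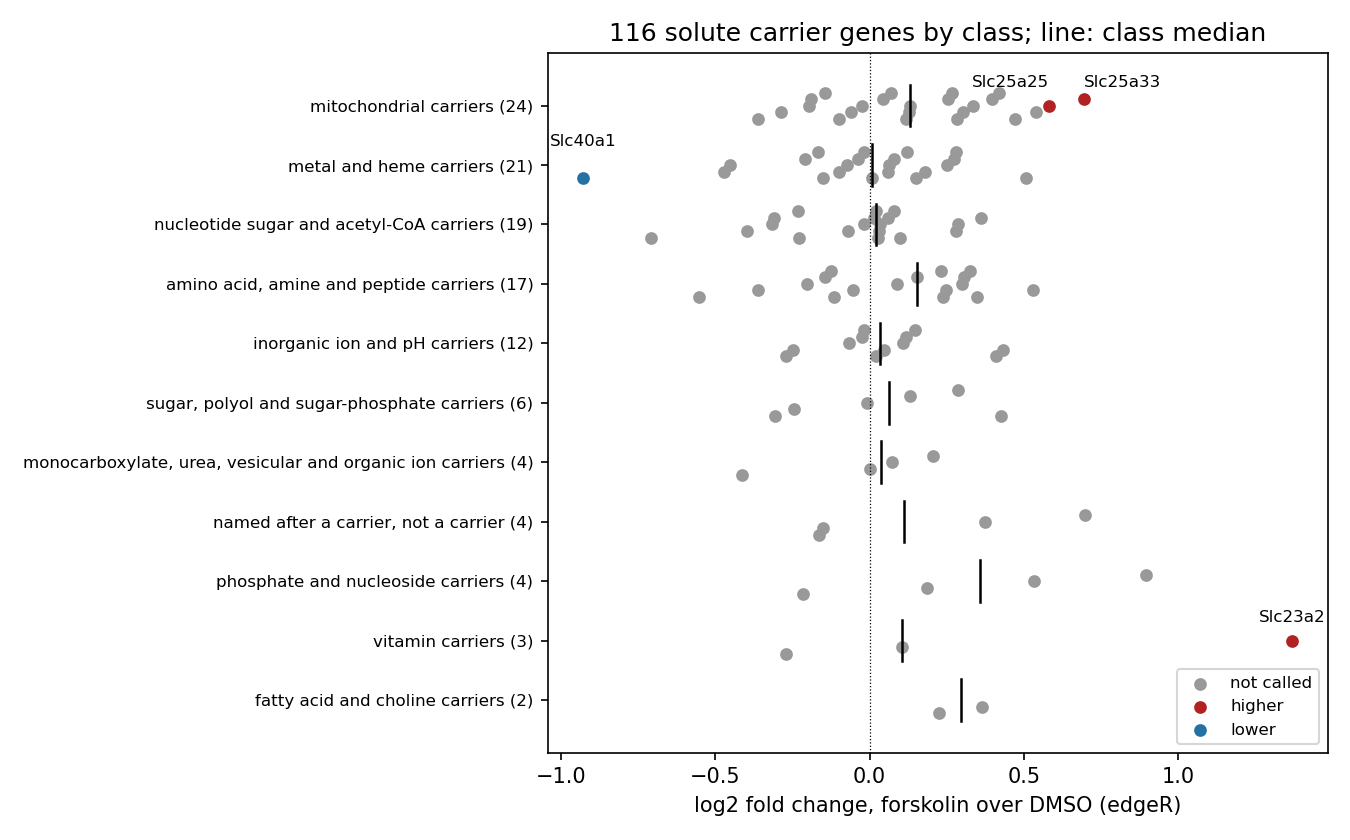
Log2 fold change (horizontal axis, forskolin over DMSO) of each of the 116 genes, grouped by carrier class (vertical axis), with the called genes labelled. Vertical strokes are class medians. Of all genes 104 lie within 0.5 of 0, and the 4 labelled genes fall in 3 classes.

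Promoters of the called genes are shown because cAMP-responsive genes often carry the palindrome TGACGTCA, the cAMP response element, or its core TGACG. RefSeq promoters on GRCm38.p6 (250 bases before to 50 after the annotated start) were found for 88 of the 116 members, and that of Slc40a1 was not among them. TGACGTCA was in 1 of the 88 (1.14%), Slc25a36, beside 1.79% of all 32817 promoters in the table and 3.41% of those of genes of at least 20 CPM. The core TGACG or its reverse complement CGTCA was in 28 of the 88 (31.8%), beside 20.8% and 34.3%. Each member entered with 1 promoter, the one nearest its deposited start, while the backgrounds count every distinct promoter, so the shares are not matched. That promoter lay within 100 bases of the deposited start for 86 of the 88, and 15759 bases from it for Slc4a7. A full palindrome contains the core on each strand. Below, letters in capitals mark these motifs, the sequence runs 5' to 3' on the strand of the gene, and no match says only that these letters are not in this window.
Slc23a2: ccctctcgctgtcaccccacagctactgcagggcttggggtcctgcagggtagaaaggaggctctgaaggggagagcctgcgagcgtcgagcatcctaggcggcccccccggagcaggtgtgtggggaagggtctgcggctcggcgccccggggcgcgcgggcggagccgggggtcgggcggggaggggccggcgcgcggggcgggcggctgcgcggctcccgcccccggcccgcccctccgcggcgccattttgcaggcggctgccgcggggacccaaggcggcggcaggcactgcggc
Slc25a25: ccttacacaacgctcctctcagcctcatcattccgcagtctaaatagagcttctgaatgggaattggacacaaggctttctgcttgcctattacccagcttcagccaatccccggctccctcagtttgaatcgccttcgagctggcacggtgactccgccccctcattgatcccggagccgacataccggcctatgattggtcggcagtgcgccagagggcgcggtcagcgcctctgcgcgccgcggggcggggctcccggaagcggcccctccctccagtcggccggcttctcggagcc
Slc25a33: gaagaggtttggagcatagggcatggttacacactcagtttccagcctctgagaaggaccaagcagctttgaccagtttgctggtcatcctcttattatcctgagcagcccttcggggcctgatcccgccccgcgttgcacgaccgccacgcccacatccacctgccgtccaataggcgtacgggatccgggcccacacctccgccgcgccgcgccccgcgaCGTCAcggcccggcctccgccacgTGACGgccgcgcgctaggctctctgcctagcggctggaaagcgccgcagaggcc
Slc25a36: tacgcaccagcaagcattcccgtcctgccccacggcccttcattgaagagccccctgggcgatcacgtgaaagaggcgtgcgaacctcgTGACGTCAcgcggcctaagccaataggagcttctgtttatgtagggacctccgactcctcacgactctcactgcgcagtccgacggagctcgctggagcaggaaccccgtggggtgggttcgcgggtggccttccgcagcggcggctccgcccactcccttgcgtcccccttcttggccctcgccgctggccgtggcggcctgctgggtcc
These windows are chr2:132145059-132145358, chr2:32451421-32451720, chr4:149774218-149774517 and chr9:97110992-97111291, all on the minus strand. The windows of Slc23a2 and Slc25a25, both called higher, held neither motif. That of Slc25a33 held 2 cores, whose first bases lie 28 and 4 bases before the start. The palindrome of Slc25a36 begins 161 bases before the start, and this gene was not called.

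Metals formed the class with the called fall. Slc40a1 encodes ferroportin, the only known exporter of iron from mammalian cells, and lies at chr1:45908070-45925594 on the minus strand. Its level was 81.7, 94.3 and 71.3 CPM with DMSO and 48.7, 48.5 and 30.7 CPM with forskolin. Forskolin values all lay below DMSO values. The log2 fold change was -0.93 ± 0.19 (0.526-fold, adjusted p = 0.031), and the adjusted p with forskolin A, forskolin B, DMSO A and DMSO B left out in turn was 0.0824, 0.0691, 0.127 and 0.186. Ferroportin is also abundant in macrophages. The summed level of the 10 macrophage markers was 18.7, 21.6 and 22.6 CPM with DMSO and 18.6, 14.1 and 14.4 CPM with forskolin. Of these markers Marco was at 0 in every library, Adgre1, Cd5l and Timd4 had means of at most 0.104 CPM, and Cd68 (13 and 10.1 CPM) and Csf1r (5.71 and 4.26 CPM) made up most of the sum. The part of macrophages in the fall of Slc40a1 was not tested.

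The other 20 metal and heme carriers did not pass the test, Slc30a6 and Slc30a1 having unadjusted p of 0.0322 and 0.0374. The most abundant per kilobase were the zinc importers Slc39a6 (152 CPM per kb) and Slc39a7 of the endoplasmic reticulum (143), and the heme transporter Slc48a1 (141). Slc39a7 was at -0.10 ± 0.11 (adjusted p = 0.857). Slc30a1, the zinc exporter of the plasma membrane, was at 34.9, 34.9 and 31.3 CPM with DMSO and 52.5, 56.0 and 33 CPM with forskolin. Forskolin C lay close to the DMSO libraries, the others well above them (log2 fold change 0.51 ± 0.21, adjusted p = 0.36). Without both C libraries the gene was called (0.63, adjusted p = 0.00648). The zinc importer Slc39a14 was at 0.18 ± 0.13 (adjusted p = 0.713).

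Phosphate and nucleoside carriers had a class median of 0.36 over 4 genes. That median includes Slc29a3, which reached 20 CPM in the forskolin mean only, so it is partly set by the choice of members. None of the 4 was called by the quasi-likelihood test on all 6 libraries (2 passed at an unadjusted p of 0.05). DESeq2 called 1, edgeR's likelihood ratio test 2, the fit with no filter 2 and the fit without both C libraries 1. Of all genes tested, 2.80% were called in the 6-library test and 12.1% passed at an unadjusted p of 0.05. Without both C libraries 9.76% were called, and 13.5% of those of at least 20 CPM. DESeq2, the likelihood ratio test and the fit with no filter also called more genes in all, with numbers in the closing section. These backgrounds apply to each class below as well. Slc20a1, the sodium-phosphate cotransporter PiT-1, was at 270, 251 and 315 CPM with DMSO and 378, 385 and 444 CPM with forskolin. The C library was the highest of each group, and the groups did not overlap. The log2 fold change was 0.53 ± 0.13 with an adjusted p of 0.0596, and the gene was called with column totals alone (0.0345), with DESeq2 (0.0058) and without both C libraries (2.02e-05). Its paralog Slc20a2 was at 132 ± 25 and 113 ± 26.3 CPM (-0.21 ± 0.19, adjusted p = 0.776), and the difference between them was not tested. Slc29a3, a nucleoside transporter of lysosomes, was at 24.9, 19 and 13.4 CPM and then at 28.5, 34 and 47.8 CPM (0.89 ± 0.28, adjusted p = 0.171). Forskolin C was its highest library and DMSO C its lowest, and without both the fitted change was 0.51. The plasma membrane transporter Slc29a1 was at 0.19 ± 0.15 (adjusted p = 0.757).

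None of the 17 amino acid carriers was called with all 6 libraries in the quasi-likelihood test (3 passed at an unadjusted p of 0.05). DESeq2 called 0, and 3 were called without both C libraries, 2 higher and 1 lower. Slc3a2, the heavy chain CD98 that brings several light chains to the membrane, had 290 CPM per kb, the glutamine and alanine transporter Slc38a2 had 193, and the cystine-glutamate exchanger Slc7a11 had 140. Slc7a11 was at 1012, 1090 and 1355 CPM with DMSO and 1242, 1333 and 1680 CPM with forskolin. In both groups the C library was the highest, and the groups overlapped (0.30 ± 0.18, adjusted p = 0.603). Without both C libraries Slc7a11 was called (0.29, adjusted p = 0.0285). Slc3a2 was at 0.23 ± 0.24 and Slc38a2 at 0.25 ± 0.19, also highest in the C libraries, and without forskolin C that of Slc3a2 was -0.05. The leucine transporter Slc7a5 was at 255 ± 55.0 and 321 ± 8.24 CPM (0.33 ± 0.15, adjusted p = 0.447). Slc6a8, the creatine transporter, was at 162 ± 9.42 and 206 ± 20.2 CPM (0.35 ± 0.11, adjusted p = 0.182), and the lysosomal amino acid exporter Slc36a1 at 205 ± 14.6 and 160 ± 14 CPM (-0.36 ± 0.11, adjusted p = 0.165). Neither overlapped between the groups, and both were called without both C libraries (adjusted p = 0.0167 for Slc6a8 and 0.01 for Slc36a1). The glutamine transporter Slc1a5 did overlap (0.53 ± 0.20, adjusted p = 0.287).

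**Figure D4:**
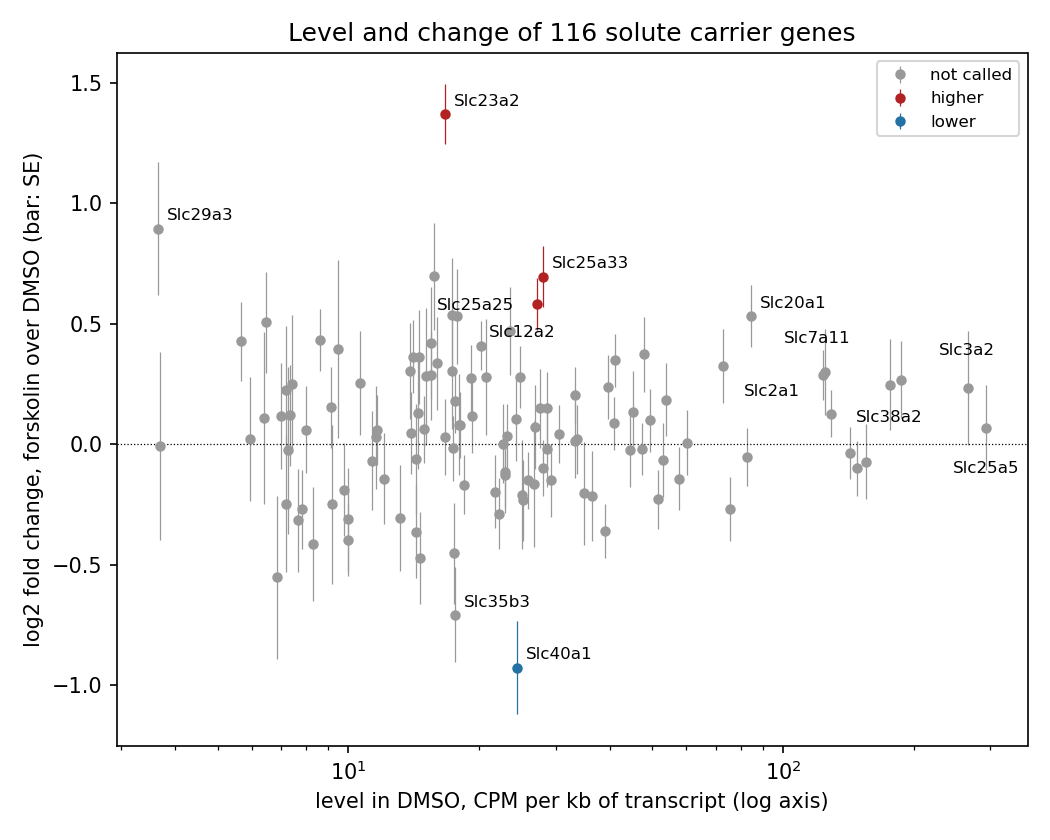
Fitted log2 fold change of each of the 116 genes with its SE (vertical axis) against its level in DMSO in CPM per kilobase of transcript (horizontal axis, log scale), with called genes in colour. The called genes have intermediate levels, and the most abundant genes, such as Slc25a5 and Slc3a2, lie within 0.5 of 0.

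Among 12 inorganic ion and pH carriers the quasi-likelihood test on all 6 libraries called none (2 passed at an unadjusted p of 0.05), and DESeq2, the likelihood ratio test and the fit without both C libraries called 1 each. The sodium-potassium-chloride cotransporter Slc12a2 was at 127, 126 and 140 CPM with DMSO and 177, 177 and 166 CPM with forskolin, with no overlap (0.41 ± 0.10, adjusted p = 0.0748). Those calls were all of Slc12a2. Its relatives Slc12a4 and Slc12a7, which are potassium-chloride cotransporters, were at -0.07 ± 0.15 and 0.02 ± 0.26. The sodium-bicarbonate cotransporter Slc4a7 was at 66.3 ± 3.88 and 89.9 ± 7.50 CPM (0.43 ± 0.13, adjusted p = 0.143), and the anion exchanger Slc4a2 at 0.15 ± 0.16.

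Of the 19 nucleotide sugar and acetyl-CoA carriers none was called by the quasi-likelihood test on all 6 libraries (2 passed at an unadjusted p of 0.05), and DESeq2, the likelihood ratio test and the fit without both C libraries called 1, Slc35b3. Slc35b3, which carries the sulfate donor PAPS into the Golgi apparatus, was at 33.5, 32.7 and 36.3 CPM with DMSO and 18.6, 23.3 and 20.6 CPM with forskolin. The groups were well apart, and the log2 fold change was -0.71 ± 0.20 (adjusted p = 0.115). Slc35b2, the other PAPS transporter, was at 38 ± 13.2 and 46.6 ± 6.38 CPM (0.28 ± 0.24, adjusted p = 0.773). Slc35e2, whose cargo is not established, was at -0.40 ± 0.15 (adjusted p = 0.302). The most abundant per kilobase were Slc35b1 (51.2 CPM per kb) and Slc35f5 (47.9), at 0.10 ± 0.13 and -0.23 ± 0.12.

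The sugar and polyol carrier families held 6 members, among them Slc5a6, a multivitamin transporter placed there by its family number. None was called by the quasi-likelihood test on all 6 libraries (2 passed at an unadjusted p of 0.05), DESeq2 called 0, and 1 was called without both C libraries. The glucose transporter GLUT1, Slc2a1, was at 331, 311 and 309 CPM with DMSO and 383, 385 and 392 CPM with forskolin. The libraries of each group lay close together, with no overlap (0.29 ± 0.10, adjusted p = 0.272). It was the gene called without both C libraries (0.25, adjusted p = 0.0286). The myo-inositol transporter Slc5a3, which shares its locus with Mrps6, was at 0.43 ± 0.16 (adjusted p = 0.299). Mrps6 itself was at 66.1 and 64.4 CPM. The lactate transporter Slc16a1 was at 147 ± 18.6 and 170 ± 6.08 CPM (0.21 ± 0.12, adjusted p = 0.574). Slc16a3, the other lactate transporter studied, was below the level required at 3.51 ± 3.08 and 8.70 ± 3.66 CPM. The fatty acid transport protein Slc27a4 was at 0.36 ± 0.15 (adjusted p = 0.356) and the choline transporter-like Slc44a2 at 0.23 ± 0.26 (adjusted p = 0.861).

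Of the 4 genes that are not carriers, the scaffold Slc9a3r1 (NHERF1), which tethers receptors and exchangers to the membrane skeleton, was at 33, 36.1 and 21.2 CPM with DMSO and 56.1, 49.7 and 41.6 CPM with forskolin. The groups did not overlap (0.70 ± 0.22, adjusted p = 0.187), and Slc9a3r1 was called with no filter (0.034), with sample quality weights (0.0133) and without both C libraries (0.0119). For Slc7a6os the groups did not overlap either (0.37 ± 0.15, adjusted p = 0.356). Slc9a3r2 and Slc4a1ap were at -0.16 ± 0.26 and -0.15 ± 0.15. The quasi-likelihood test on all 6 libraries called none of the 4 (2 passed at an unadjusted p of 0.05).

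A list of 38 genes linked to the carriers held partners, chaperones, ion pumps, carriers with other symbols, kinases, metallothioneins and transcription regulators, among others. Of these genes 35 were tested. The quasi-likelihood test on all 6 libraries called none of them (5 passed at an unadjusted p of 0.05). DESeq2 and edgeR's likelihood ratio test called 2 each, the fit with no filter 3, and the fit without both C libraries 4 higher and 1 lower. The kinase Wnk1, which regulates cation-chloride cotransporters and is among the abundant genes of the list, was at 538 CPM with DMSO and 501 CPM with forskolin. Ppargc1a, a coactivator of mitochondrial genes, was at 1.04 ± 0.860 and 6.68 ± 2.79 CPM (2.88 ± 0.75, adjusted p = 0.0918). Its DMSO values of 0.583, 0.506 and 2.03 CPM lay near the floor of 3 counts, so the size of the fitted change is uncertain. The gene was named after its values were seen. Among the 89 Slc genes below 20 CPM that were tested, that test also called none (5 passed at an unadjusted p of 0.05). DESeq2 called 2, the likelihood ratio test 3, the fit with no filter 2 and the fit without both C libraries 5. For both sets the background is that of all genes tested. In the 6-library test 2.80% of them were called and 12.1% passed at an unadjusted p of 0.05. Without both C libraries 9.76% were called (13.5% of those of at least 20 CPM). The numbers of all genes called under the other settings are given in the closing section.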

How the data were processed

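Polyadenylated RNA of 6 libraries was sequenced after preparation with a kit that, per the labels' protocols, was NEBNext Ultra; no strand setting is given in the sources used here. The submitters' processing notes name STAR, HOMER and mm10 without versions. The authors deposited expected counts of exon reads per gene in steps of 0.5 (14348 of 24940 rows hold such values), which were rounded to whole numbers before testing; how they were divided between overlapping genes is not given. Of the members, 15 overlap another gene, 4 of them one of at least 20 CPM, and 0 have a second copy listed.

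Tests ran in R 4.3.3 with edgeR 4.0.16: filterByExpr, TMM, the robust quasi-likelihood F test, and Benjamini-Hochberg adjustment over all 12233 genes. CPM of single genes are TMM-scaled, while sums of markers and the choice of members use column totals. An SE is the absolute log2 fold change over the square root of F. limma 3.58.1 and DESeq2 1.42.0 served as alternatives. The test was checked on simulated counts. The floor of 3 counts equals 0.283 to 1.08 CPM. Members, classes by family number and lists were chosen with earlier results of these data known. Named genes are all called members, the 12 uncalled ones of smallest p and the 2 most abundant per length in each class. Also named are those nearest the threshold and a set of well-known carriers. Others are paralogs or neighbours of these, or genes of the partner list, named after their values were seen. The values of 2 genes are not reported here.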

Additional observations from a re-analysis of the deposited data

How the results depend on the processing

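Solute carrier genes called numbered 4 (3 higher, 1 lower) among 342 called genes. No filter gave 7 (6 higher) among 620, DESeq2 7 (5 higher, 2 lower) among 553, limma-voom 6 (5 higher, 1 lower), limma-voom with sample quality weights 14 (9 higher, 5 lower) among 989, the edgeR likelihood ratio test 8 (6 higher, 2 lower) among 648, and the fit without both C libraries 14 (10 higher, 4 lower) among 1229; column totals alone gave 0 lower. With the replicate letter as a block (paired fit) 11 were called (9 higher, 2 lower) among 649, and all 4 calls were kept; the block added Slc12a2, Slc20a1, Slc2a1, Slc36a1, Slc6a8, Slc7a11 and Slc9a3r1. The letters are no known pairing: same-letter deviations correlated at 0.048 for A, 0.133 for B and 0.150 for C, and forskolin A correlated better with DMSO B (0.103). Leaving out single libraries gave 1 to 6 members (1 to 5 higher, 0 to 1 lower) among 185 to 485 genes. The cause of these moves was not tested. Over the alternative settings that kept every library or left out both C libraries, 302 to 1229 of all genes were called. The counts for limma-voom and for column totals alone lie in that range. The share of genes tested was computed only for the 6-library fit and the fit without both C libraries. The median log2 fold change of the members ran from 0.0046 to 0.0921 over the libraries left out. Signs turned only for genes that were not called. Without single libraries, the log2 fold change ran from -0.0494 to 0.432 for Slc3a2, -0.176 to 0.0637 for Slc12a4, -0.226 to 0.00804 for Slc39a6, -0.122 to 0.177 for Slc25a5, -0.0194 to 0.249 for Slc22a4, -0.0801 to 0.271 for Slc37a3, -0.456 to 0.202 for Slc26a11 and -0.246 to 0.194 for Slc52a2. Slc25a5 was at -0.0112 with quality weights and -0.0261 without both C libraries. Slc26a11 was at 0.0523 with limma-voom, 0.153 with quality weights and 0.259 without both C libraries, where Slc52a2 was at 0.0315. The 2770629 counts of the shallowest library limit what can be seen of genes near 20 CPM, where the lowest count of a member was 21.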
